A study of Mus musculus with 2343 samples.

Results

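Cortical thymic epithelial cells (cTECs) from mice of the strain Eedflfl::beta5tCre were profiled one by one, and the set described here holds 86.7% of the wells labelled cTEC Eed, all but 51 of a layout of 16 rows and 24 columns. Each well is 1 single cell in the labels, ZsGreen status negative. A cell was kept with at least 50000 gene counts and at least 1000 detected genes. A gene was called detected in a cell from 1 count. These cells make up 23.2% of the 1438 single cells of the study that pass the same filter, among 2343 labelled samples in all. The other single-cell groups are cTECs of the strain Eedflfl (called WT in the labels) and medullary cells with high MHC class II (mTEChi). The mTEChi cells come from strains with a ZsGreen reporter and were labelled WT, Eed ZsGneg or Eed ZsGpos. The floxed Eed alleles are shared by the Eed cells and the WT cTECs, which differ in the beta5tCre driver.

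Eed is a subunit of Polycomb repressive complex 2 (PRC2), which methylates histone H3 at lysine 27 and keeps developmental genes silent. The beta5t gene, Psmb11, encodes a proteasome subunit made in cTECs, and a Cre under its control acts in thymic epithelium whose progenitors have passed through that state. Mature cTECs present self peptides on MHC molecules to immature T cells and attract their precursors with chemokines. Counts per gene do not separate the floxed exon from the rest of Eed, so the deletion itself is not shown by these values. No label names the animals or cultures, so the cells are 1 sample and no test between cells or groups was made. Intervals are exact 95% intervals for shares (Clopper-Pearson) and for summed counts (Poisson). These cover only the error of counting cells or reads, not differences between animals. Reads were amplified and carry no identifier of the molecule they came from. The Poisson intervals therefore do not cover the error of counting molecules.

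The cells were deeply sequenced. Gene counts per cell ran from 54094 to 755410 with a median of 516069, and detected genes from 1120 to 11218 with a median of 6407. The lowest cells inside the filter held 54094 and 57971 gene counts. Outside it, the highest well held 116485 gene counts but fewer than 1000 genes, and the next held 49010. Of 14 no template control wells, all labelled mTEChi, 3 held over 50000 gene counts, the highest 73567. Gene counts alone thus did not mark off wells without a cell. Mitochondrial (mt-) genes took a median of 2.99% of gene counts, and 9 cells were above 10%, the highest at 54.9%. ERCC spike-ins, an added control RNA, took a median of 0.899% of spike-in and gene counts, up to 32.9%. Counts outside any gene feature took a median of 16.5% of all counts, up to 82.7%. Of 45317 gene rows, 12849 were detected in at least 10% of the cells (28.4%), 5471 in at least 50%, and 58 in every cell. Only 30423 rows had a count in any cell, so a share of all gene rows is lower than a share of genes with a count. Xist was detected in 96.7% of cells.

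Low counts of abundant transcripts were widespread in these wells. The 51 wells left out by the filter held a median of 1514 gene counts, yet Dcn had a count in 50 of them, Cyp2f2 in 35 and Krt15 in 31. From 5 counts the same wells gave 19, 6 and 3. Among the cells kept, 4 Y-linked genes summed to 0.288 CPM (gene counts scaled to a total of 1000000) and had a count in 42 cells, never more than 2 in a cell. Shares from 5 counts are therefore printed beside shares from 1 count for the markers and for some other genes; every other share is from 1 count. How much of the 1-count shares comes from RNA or reads of other wells was not tested.

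Among the 6 marker genes of the set, Dcn, Cyp2f2 and Krt15 were detected in over 80% of cells, and Prrx1, Gata3 and Cdkn2b in fewer. Levels are given as CPM, which SMART-seq2, a full-length protocol, leaves dependent on transcript length, so levels are compared between cells and not between genes. Promoters of 4 of the 6 are in the RefSeq table used here (GRCm38.p6). They are shown for 3 of these genes because their CpG content differs widely, and PRC2 in mammals is known for binding at CpG-rich DNA. Each line gives the 250 bases before the start site, 5′ to 3′ on the strand of the gene, with every CG pair in capitals.
Cyp2f2: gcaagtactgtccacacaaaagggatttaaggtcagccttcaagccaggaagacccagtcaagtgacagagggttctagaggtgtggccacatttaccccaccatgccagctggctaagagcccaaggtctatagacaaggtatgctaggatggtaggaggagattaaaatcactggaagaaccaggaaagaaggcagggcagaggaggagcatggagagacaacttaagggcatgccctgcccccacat
Cdkn2b: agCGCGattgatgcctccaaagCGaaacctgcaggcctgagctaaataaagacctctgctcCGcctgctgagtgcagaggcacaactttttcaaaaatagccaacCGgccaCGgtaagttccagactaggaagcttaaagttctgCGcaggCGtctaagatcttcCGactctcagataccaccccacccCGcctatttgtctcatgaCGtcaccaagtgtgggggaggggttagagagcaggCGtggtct
Gata3: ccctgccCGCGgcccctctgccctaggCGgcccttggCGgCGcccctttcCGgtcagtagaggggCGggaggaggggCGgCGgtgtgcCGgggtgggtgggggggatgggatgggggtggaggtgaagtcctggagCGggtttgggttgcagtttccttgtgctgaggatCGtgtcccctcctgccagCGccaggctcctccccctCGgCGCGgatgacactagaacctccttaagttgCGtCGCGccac
The Cyp2f2 window (chr7:27119705-27119954, plus strand) has 0 CG pairs, as do 7.87% of the 32851 promoters in that table. The Cdkn2b window (chr4:89311033-89311282, minus strand) has 12 CG pairs, and 33.5% of promoters have as many or more. The Gata3 window (chr2:9878601-9878850, minus strand) has 19, a number that 19.7% of promoters reach. It lies before a start site inside the span given for the gene in the gene table, as does the window of Prrx1, and not before the outer end of that span. The windows of Prrx1 and Psmb11 have 4 each, against a median of 6 over all promoters. CG reads the same on both strands, and the counts describe the letters of these windows only.

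Dcn encodes decorin, a small proteoglycan of connective tissue matrix (chromosome 10, 97479500 to 97518163, GRCm38). Its counts summed over cells gave 4516 CPM (4506 to 4527). Single cells ran from 1.85 to 27035 CPM with a median of 2644. It had a count in every cell, and at least 5 counts in 87.99%. At least 1000 CPM was reached by 63.4% of cells, so a high level of this matrix gene was the usual state of these epithelial cells.

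Cyp2f2, a cytochrome P450 known from the secretory cells of the airway (chromosome 7, 27119955 to 27133660), had 2171 CPM (2164 to 2179). It was detected in 95.5% of cells (92.7 to 97.5), and from 5 counts in 81.1%. The cells ran from 0 to 11080.4 CPM with a median of 1297. Of 15 genes on the airway secretory list, Cyp2f2 included, 4 were detected in at least 10% of cells (26.7%, near the 28.4% of all gene rows), and Scgb1a1, Muc5b, Sftpb and Sftpc had no count in any cell, which allows a share of up to 0.901% (3 cells of the total). Bpifa1 was detected in 61 cells and reached 49018 CPM, but 17 cells held 99.5% of its counts.

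Krt15, a keratin of basal epithelial cells and their progenitors (chromosome 11, 100131759 to 100135949), had 1137 CPM (1132 to 1142). It was detected in 82.6% of cells (78.1 to 86.5), and from 5 counts in 68.2%. Single cells ran from 0 to 8119.8 CPM with a median of 342.5 and quartiles of 2.45 and 1817. The spread was wide: 58 cells had no count, 48 had 1 to 4 counts, and 120 cells held at least 1000 CPM.

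Prrx1, a homeodomain factor of limb and craniofacial mesenchyme (chromosome 1, 163245119 to 163315145), had 190.01 CPM (187.9 to 192.1). It was detected in 70.9% of cells (65.7 to 75.7), and from 5 counts in 64.3%. The cells ran from 0 to 2388 CPM, with a median of 104.8. Most cells with any Prrx1 thus held 5 counts or more. The epithelial adhesion gene Epcam was detected together with it in 62.2% of all cells and was missing beside it in 29 cells, or 41 when both are counted from 5 counts.

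Gata3, a zinc finger factor used in T cells and in several epithelia (chromosome 2, 9857078 to 9887953), had 59.1 CPM (57.95 to 60.3) and was detected in 55.9% of cells (50.3 to 61.3). Cdkn2b, which encodes the CDK4 and CDK6 inhibitor p15 (chromosome 4, 89306289 to 89311032), had 42.7 CPM (41.7 to 43.7) and was detected in 45.6% of cells (40.2 to 51.2). From 5 counts the shares were 45.05% and 41.7%. Where detected, the median was 72.4 CPM for Gata3 and 66.4 CPM for Cdkn2b. Each of these genes was therefore absent or at moderate levels in a large part of the cells. The highest cell held 1202 CPM of Gata3, and for Cdkn2b 710.2 CPM.

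**Figure D1:**
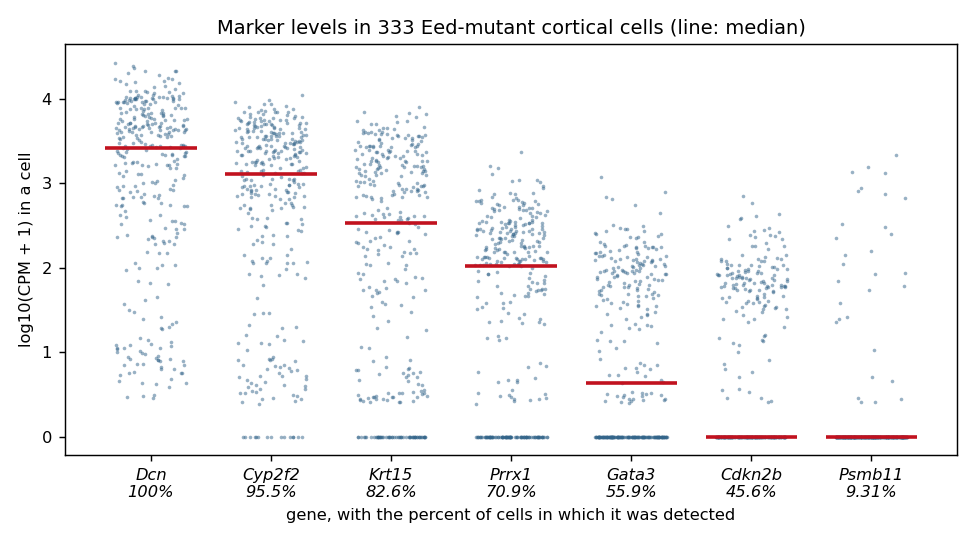
Level of each marker in each cell (points, log10 of CPM + 1, y axis) by gene (x axis), with the median as a red line and the percent of cells with at least 1 count under the name. Dcn, Cyp2f2 and Krt15 spread from few counts to the highest cells at 27035, 11080.4 and 8119.8 CPM, and Psmb11 was at 0 in over 90% of cells.

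All 6 were detected in 17.4% of cells, 5 of them in 36.3%, 4 in 30.03%, 3 in 11.7% and 2 in 4.505%. From 5 counts, all 6 stood in 32 cells and none in 2. Krt15 and Cyp2f2 were both detected in 79.6% of cells, with single shares of 82.6% and 95.5%. With Cyp2f2 in nearly every cell, that joint share could hardly depart from the product of the single shares. Both were found from 5 counts in 62.2% of cells, above the product of their shares of 68.2% and 81.1%. Krt15 and Prrx1 were found together from 5 counts in 50.2%, also above the product of 68.2% and 64.3%. Joint detection of Cdkn2b and Gata3 lay near the product at either limit. The levels of 3 of the 6 markers were related. Over the cells, which carry 1 label and 1 set of well positions and differ in depth, the Spearman correlation of CPM was 0.62 between Krt15 and Cyp2f2, 0.53 between Krt15 and Dcn, and 0.45 between Cyp2f2 and Dcn. Prrx1 followed less closely, at 0.34 with Krt15, 0.37 with Cyp2f2 and 0.25 with Dcn. Cdkn2b and Gata3 followed neither this group nor each other: their correlation was -0.02, both were detected in 85 cells, and Cdkn2b stood at -0.15 with Krt15 while Gata3 stood at 0.07.

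The genes most like each marker over cells differed accordingly. For Krt15 they were Col17a1, a hemidesmosome collagen of basal epithelium (rho 0.69), Ltbp4, which binds latent TGF-beta (0.67), the taurine transporter Slc6a6 (0.64), Cyp2f2 and Fmo2 (0.61). Epcam (-0.45) and Krt18 (-0.45) lay at the opposite end. Cyp2f2 shared Fmo2, a flavin monooxygenase (0.54), and Ltbp4 (0.53), and was followed by Ppap2b (0.52). Dcn shared Col17a1 (0.53) and was followed by the apolipoprotein Apoe (0.50). Prrx1 was nearest to the fibrillar collagen Col3a1 (0.46), S100a6 (0.42) and its paralog Prrx2 (0.41). For Cdkn2b the closest gene was Notch3, at only 0.22, and for Gata3 Fam84a, at 0.25, so neither marker had a close companion among genes detected in at least 20% of cells.

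The cortical label was compared with 16 cTEC genes, of which 13 were detected in at least 10% of cells (81.25%, beside 28.4% of all gene rows). Tgfb2 is among them at 69.7%, but was detected in 7.35% of WT cTECs and 37.8% of WT mTEChi cells. Ctsl, the cathepsin that trims MHC class II peptides in the cortex, had 1541 CPM in 99.7% of cells, and the chemokine Cxcl12 445.6 CPM in 89.5%. Il7, the T-cell survival cytokine, was detected in 69.7%, the endocytic receptor Ly75 in 64.3%, and the stem cell factor Kitl in 54.1%. In WT mTEChi cells Cxcl12 was detected in 11.9% and Kitl in 20.3%, against 98.2% and 81.6% in WT cTECs, with no test. Ctsl, Il7 and Ly75 differed less, at 65.7%, 74.1% and 46.2% of WT mTEChi cells and 100%, 93.01% and 89.3% of WT cTECs. Prss16, the thymus serine protease, was detected in 56.2% of cells with a median of 3.77 CPM, and 17 cells held 72.4% of its counts. Foxn1, the master regulator of thymic epithelium, was detected in 38.1% at 75.5 CPM. The chemokine Ccl25 was detected in 21.9%, Tbata in 13.2%, Cd83 in 9.91% and the Notch ligand Dll4 in 4.204%. Foxn1, Tbata and Ccl25 were detected in 75.9%, 82.5% and 50.7% of WT mTEChi cells, beside 74.6%, 76.8% and 79.4% of WT cTECs, so their detection is not particular to the cortex in these data.

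Psmb11 (chromosome 14, 54625310 to 54629556), the gene whose control elements drive the Cre, was detected in 31 cells, 9.31% (6.41 to 12.95), and from 5 counts in 23. Its summed level was 34.3 CPM (33.4 to 35.2). The cells ran from 0 to 2149 CPM with a median of 0, and 17 cells held 98.05% of the counts, so the summed level describes a few cells. Plate rows A to H gave 14.4 CPM and rows I to P 54.8 CPM. The cause of that gap was not tested. Of the 31 cells, 19 also had Krt15, and from 5 counts 8 of 23. Of the defining genes, Cxcl12 was thus present in most cells, while Psmb11 and Dll4 were detected in fewer than 10%.

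For reference, and with no test, the same values in the WT cTECs were 63.2% of cells for Psmb11 (789.96 CPM), 97.1% for Prss16 (3443 CPM) and 74.6% for Foxn1. There Krt15 was detected in 2.21%, Cyp2f2 in 1.84%, Prrx1 in 1.47%, Gata3 in 6.25% and Cdkn2b in 3.31%. Dcn was found in 90.8%, at 1492 CPM. The median depth there was 538740 gene counts. Each cTEC group fills a set of well positions of its own, with no plate named, so a plate and the genotype cannot be told apart. In ZsGpos mTEChi cells, sorted as reporter positive and at a median of 309825 gene counts, Krt15 was detected in 25.8%, Prrx1 in 14.7% and Cdkn2b in 59.4%. Cyp2f2 was detected there in 23.96% and Dcn in 48.4%. Gata3 was detected there in 40.6% at 60.1 CPM, beside 59.1 CPM in the Eed cTECs. Cdkn2b stood at 50.7% in WT mTEChi cells as well.

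**Figure D2:**
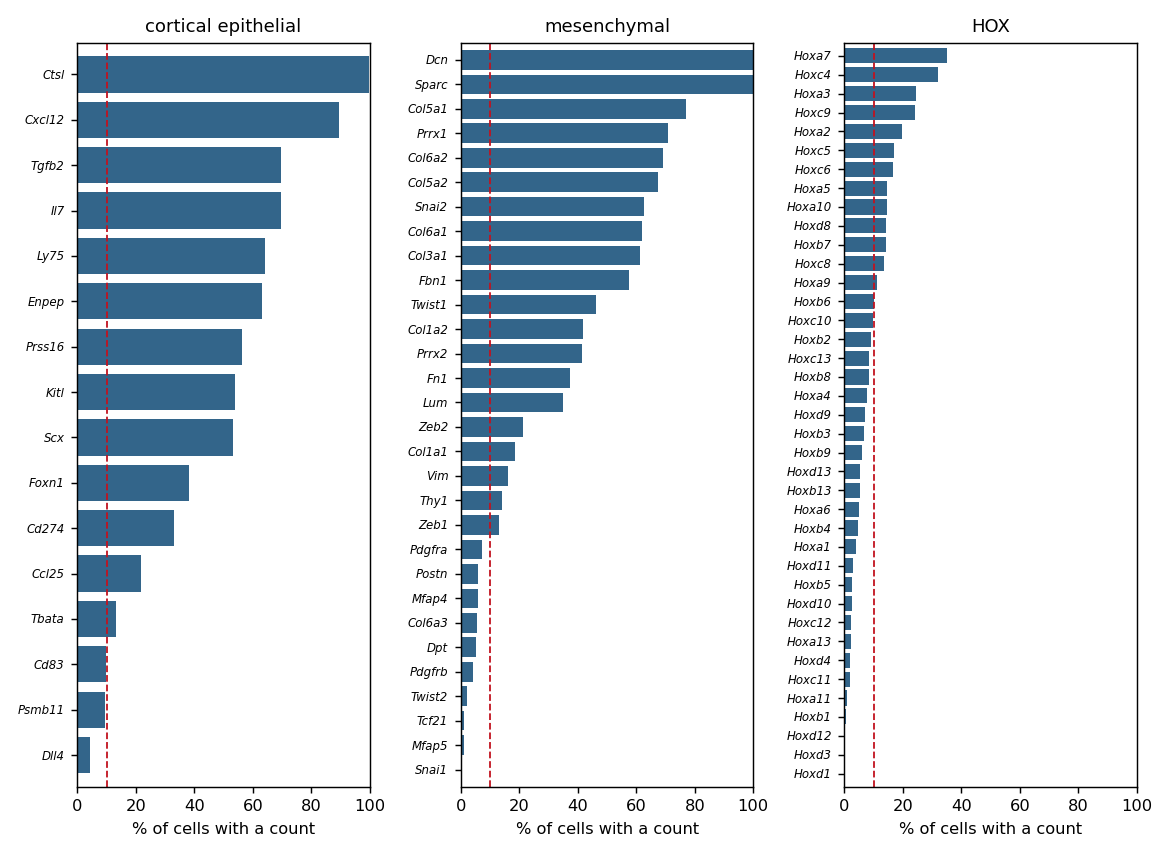
Percent of the cells with at least 1 count (x axis) for each gene of 3 lists, cortical, mesenchymal and HOX (y axis), with a dashed line at 10%. Cortical and mesenchymal genes run from over 99% to under 5%, and the most widely detected HOX gene is Hoxa7 at 35.1%.

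Every cell had at least 2 of the 16 genes on the epithelial list, with a median of 9. Krt8, a keratin of simple epithelia, was detected in 98.8% of cells (771.1 CPM), the cell adhesion gene Cdh1 in 95.2% and Epcam in 90.4%. Of 16 genes on the epithelial list 14 passed 10% of cells (87.5%, beside 28.4% of all gene rows). Its lower members were Cldn7 (17.4%), Ovol2 (15.6%), Cldn3 (13.5%), Ovol1 (9.61%) and Cldn6 (3.60%). Of 6 epithelial genes (Epcam, Krt8, Krt18, Cdh1, Krt5 and Krt14), no cell had fewer than 2 from 1 count, and the median was 6. From 5 counts, 9 cells had fewer than 3 of the 6, and the median was 5. Basal keratins accompanied the epithelial genes. Krt5 had 2855 CPM in 98.2% of cells and was found with Krt8 in 97.3% of cells. Krt17 had 1728 CPM in 96.1%, Krt14 799.8 CPM in 85.9% (70.9% from 5 counts), Krt19 673.8 CPM in 86.8%, and Trp63, the factor that maintains basal layers, was detected in 90.1%. Of 12 genes on this list of basal and immature medullary cells, which holds the marker Krt15, 10 were detected in at least 50% of cells. Over all gene rows, 5471 of 45317 reached that share. The remaining list members, Ccl21a and Pdpn, had no cell with 5 counts. Of 14 genes of mature medullary cells, 3 passed 10% (21.4%, beside 28.4% of all gene rows), with Aire in 3 cells and Xcl1 in none.

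Genes of mesenchyme were spread through the epithelial cells. Of 30 such genes, 20 were detected in at least 10% of cells, 66.7% of the list beside 28.4% of all gene rows, and a cell had a median of 11 of them. The markers Dcn and Prrx1 are on this list. Sparc, a matrix glycoprotein, had 1759 CPM and a count in every cell. The collagen genes Col5a1 (76.9%), Col6a2 (69.1%), Col5a2 (67.3%), Col6a1 (61.9%) and Col3a1 (61.3%) were in most cells from 1 count. From 5 counts these shares were 73.9%, 63.4%, 57.1%, 55.3% and 45.9%. Col3a1 reached 14324 CPM in a cell with a median of 3.47 CPM over cells. Lum, a relative of decorin, was detected in 34.8% (22.8% from 5 counts), Col1a2 in 41.7% and Col1a1 in 18.6%. The transcription factors of the list ran from Prrx1 (70.9%), Snai2 (62.5%), Twist1 (46.2%) and Prrx2 (41.4%) to Zeb2 (21.3%), Tcf21 (1.201%) and Snai1, in 1 cell. Among other members, the receptors Pdgfra and Pdgfrb were detected in 7.21% and 4.204%, and Vim, an intermediate filament gene, in 16.2%. Col3a1 was detected together with Epcam in 53.2% of all cells and without it in 27 cells.

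Developmental transcription factors were detected in part. On the mesodermal list 12 of 31 genes passed 10% of cells. Osr2, a zinc finger factor of palate and limb, had 108.1 CPM in 59.2% of cells, Twist1 was detected in 46.2%, Prrx2 in 41.4%, Msx1 in 35.7% and Osr1 in 23.4%. Six2 (65.5%) and Foxc1 (57.4%) were also found in 70.6% and 37.9% of WT cTECs. On the neural list 6 of 35 genes passed, and leaving aside Isl1 (89.2%, and 88.2% in WT cTECs) the highest were Zic1 (23.4%), Otx1 (16.2%) and Pax6 (14.7%). Neurod1, Neurog1, Neurog3, Lhx5 and Otx2 had no count in any cell. On the endodermal list the genes that passed were Foxa1 (33.3%) and Gata6 (24.9%), 2 of 20, while Foxa2, Cdx2 and Onecut1 had no count. The endodermal and neural shares, 10% and 17.1% of genes, lie below the 28.4% of all gene rows. The mesodermal share, 38.7%, lies above it, but all gene rows include rows with no count. Of the 30423 genes with a count in any cell, 12849 passed, a larger share than 38.7%.

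Of the 39 HOX genes, which set position along the body axis, 14 were detected in at least 10% of cells (35.9%, beside 28.4% of all gene rows). Of the 30423 genes with a count in any cell, 12849 passed, a larger share than 35.9%. A cell had a median of 3 HOX genes. The range was 0 to 14, and 89.2% of cells had at least 1. Hoxa7 led with 17.8 CPM in 35.1% of cells, from 0 to 198.9 CPM. Hoxc4 followed in 32.1% (12.8 CPM), Hoxa3 in 24.6%, Hoxc9 in 24.02% and Hoxa2 in 19.5%. Hoxa3 and Hoxa2 were also detected in 23.2% and 30.5% of WT cTECs, whereas Hoxa7 stood there at 2.21% and Hoxc4 at 0.368%. The clusters differed in breadth: 6 of 11 Hoxa genes, 5 of 9 Hoxc genes, 2 of 10 Hoxb genes and 1 of 9 Hoxd genes passed 10%, and Hoxd1 had no count. Counted from 5 counts, 11 HOX genes reached 10% of cells.

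Transcription factors of thymus formation were detected widely, 11 of 12 in at least 10% of cells (91.7%, beside 28.4% of all gene rows). Pax1 had 405.5 CPM in 95.5% of cells, Eya1 was detected in 92.2% and Pax9 in 87.4%. These genes act in the pharyngeal pouch from which the thymus arises. Gcm2, the factor of the parathyroid, had a count in 1 cell.

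Among the Polycomb genes, Eed (chromosome 7) had 20.9 CPM (20.3 to 21.7) and was detected in 39.04% of cells (33.8 to 44.5). Its catalytic partners Ezh1 and Ezh2 were detected in 50.8% and 26.1%, and Suz12, the scaffold of the complex, in 33.6%. The histone chaperones Rbbp4 (87.7%) and Rbbp7 (91.3%), which also serve other complexes, were the most widespread. All 19 PRC1 genes passed 10% of cells, beside 28.4% of all gene rows. Cbx6 was detected in 96.1% and the RING1 partner Bmi1 in 72.4% (104.7 CPM). In WT cTECs Bmi1 was detected in 17.3%, at 14.2 CPM, with no test. Other Polycomb genes lay closer in the 2 groups or went either way. Ring1 was detected in 69.4% here and 63.97% of WT cTECs, Rnf2 in 62.5% and 64.7%, and Cbx6 in 93.01% of WT cTECs. Rybp stood at 41.1% here and 26.8% there, but Cbx2 at 24.02% here and 41.9% there, and Eed at 48.2% there.

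Cell-cycle inhibitors were widely detected and dividing cells were few. Cdkn1a, the p21 gene, had 229.04 CPM in 73.6% of cells, and the imprinted Cdkn1c, the p57 gene, 154.5 CPM in 66.1%. Cdkn2a, the neighbour of Cdkn2b, had 1.77 CPM in 12.6% (5.71% from 5 counts), and no cell above 54.2 CPM. Of Mki67, Top2a, Ccnb1 and Cdk1, genes of cells in division, 79.6% of cells had none and 7 cells had at least 3. Mki67 was detected in 32 cells, 15 of which also had Cdkn2b. On the cell-cycle list 9 of 25 genes passed 10% (36% of the list, beside 28.4% of all gene rows), led by Pcna at 70.3%, a replication clamp that also serves DNA repair. Of the 30423 genes with a count in any cell, 12849 passed, a larger share than 36%.

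Several imprinted genes were detected in most cells. Igf2, a fetal growth factor, had 96.3 CPM in 73.6% of cells, Peg3 227.9 CPM in 68.8% and Ndn 127.9 CPM in 63.96%. H19, which lies beside Igf2, was in 13.2% of cells, and 17 cells held 90.3% of its counts. Dlk1 had no count. Of 16 imprinted genes 13 passed 10% of cells (81.25%, beside 28.4% of all gene rows), so this list was broad, with Igf2 detected in 0.735% of WT cTECs.

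Antigen presentation genes were detected throughout. Cd74, the invariant chain of MHC class II, had 7904 CPM, with single cells from 45.1 to 22245 CPM. H2-Ab1 had 3454 CPM and H2-Aa 3053 CPM, and 12 of 13 genes of this pathway passed 10% of cells (92.3%, beside 28.4% of all gene rows). B2m, which encodes the MHC class I light chain, had 5048 CPM. All 22 interferon response genes passed 10%, beside the same 28.4%, with Ifitm3 in all cells and Cxcl10 in 27.03%. Among the 15 genes with the most counts, leaving out mitochondrial and ribosomal protein genes, Cd74, H2-Ab1, H2-Aa, H2-K1 and B2m stood with Eef1a1 (10219.7 CPM), Dcn and Fos.

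Early response genes, induced within minutes by stress and growth signals, had a wide spread between cells. Fos had 3949 CPM, from 0 to 24360.5 CPM per cell with a median of 1518. Atf3, a stress-induced factor, had 2004 CPM and a median of 58.9, so most of its counts came from part of the cells. The list summed to between 30.3 and 82643 CPM per cell. The labels describe an enzymatic digestion of the thymus before the sort, and its part in these levels was not tested. Counts of Hspa1a and Hspa1b, near-identical copies, cannot be told apart.

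Signalling genes were detected in most lists, and individual members stood out by cell share. Genes that passed 10% of cells made up 84% of the Wnt and Bmp list and 66.7% of the Notch list. They made up 69.2% of the receptors and 94.4% of the p53 targets, beside 28.4% of all gene rows. Of 25 Wnt and Bmp genes 21 passed 10% of cells, among them the Wnt inhibitors Sfrp1 (81.7%) and Sfrp2 (39.6%), the ligands Wnt4 (87.1%) and Wnt5a (52.9%), and Dkk3 (62.2%). In WT cTECs Wnt4 was detected in 92.6%, Wnt5a in 5.51% and Sfrp2 in 1.47%. Of 15 Notch genes 10 passed, with the receptors Notch1 and Notch2 in 91.9% and 94.3% and the ligands Jag1 and Jag2 in 78.1% and 78.4%. Of 13 growth factor and cytokine receptors 9 passed, with Fgfr2, the receptor for the mesenchymal signal that drives thymic growth, in 88.9%. Of 18 p53 targets 17 passed, from Perp, a desmosome gene, in 99.7% to Eda2r in 24.02%, while Gdf15 was found in 2.402%. Of 12 genes of keratinised epithelium 5 passed (41.7%), with Krt10 in 62.5% and Sprr1a in 33.03%, and of 8 tuft cell genes 1 did (12.5%), where 28.4% of all gene rows passed. Only 10 of the keratinised genes had a count, and of all 30423 genes with a count 12849 passed.

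Markers of other cell types were low in most cells. Of 6 pan-leukocyte genes none passed 10% of cells, of 8 B-cell genes 1, of 13 myeloid genes 2, of 10 endothelial genes 1, and of 7 erythroid genes none. The share over all gene rows was 28.4%. Single cells still reached list sums of 26530 CPM for myeloid, 8303 for thymocyte, 8090 for B-cell and 4080 for pan-leukocyte genes. Medians over cells were 2.07 CPM for thymocyte genes and 0 for the others. The source of the high sums was not tested. Ptprc, the leukocyte antigen CD45, was detected in 11 cells, with 5 counts or more in 7. Of 20 thymocyte genes 4 passed 10%: Trbc2 (18.3%), Tcf7 (16.5%), Thy1 (14.1%) and Lck (10.5%). From 5 counts these shares were 14.4%, 11.7%, 5.71% and 9.91%. At 5 counts, 7 cells held at least 5 of the 20, up to 18 in 1 cell. The cells with Ptprc had a median of 5 of the 6 epithelial genes at 5 counts, as over all cells. Without these 11 cells the share of Krt15 was 82.6%, of Prrx1 70.2% and of Psmb11 8.696%.

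Genes with the largest spread between cells were ranked by the squared coefficient of variation of CPM, relative to genes of like mean level. Of the 20 highest, 12 carry names that are reported here, and the others are mitochondrial genes or unannotated transcripts. Prss16 exceeded genes of its level 34.5-fold and Ccl25 22.2-fold, both cTEC genes with few high cells. Cxcl10, an interferon-induced chemokine, exceeded it 34.7-fold and Cyr61, a matricellular early response gene, 22.4-fold. Col3a1 stood at 14.9-fold and the serpin Serpinb11 at 15.4-fold. For Cep162, Abl2, Pbdc1, Nup43, Samd9l and Rad1, single cells reached between 4492 and 8541 CPM while the medians lay between 0 and 7.72 CPM.

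Leiden clustering of the 1000 most variable genes divided the cells into 5 clusters, the first with 30.6% of the cells and the others with 99, 51, 49 and 32 cells. Their leading genes describe them, and since the same genes formed the clusters no cluster was tested against the rest. Median depth was between 468713 and 551772 gene counts, and each cluster was spread over at least 15 of 16 plate rows. The clusters are called by number.

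Cluster 1 (30.6% of cells) had the widest detection of Prss16 and Foxn1 among the 5. Its leading genes were Tbata (108.5 CPM, 27.5% of its cells), Ccl25 (216.9 CPM, 28.4%), Stac, Pkhd1l1, Crip3 and Prss16 (618.8 CPM, 79.4%). A few cells carried these sums: the medians within the cluster were 0 CPM for Tbata and Ccl25 and 99.7 CPM for Prss16, and over all cells 17 held 94.6% of Tbata counts and 93.8% of Ccl25 counts. Foxn1 was detected in 65.7% of its cells, at a median of 86.1 CPM, and 19 of the 31 cells with Psmb11 lay here. Krt15 had 319.7 CPM and a median of 33.8, Cyp2f2 a median of 113.01, and Prrx1 was detected in 39.2%. MHC class II genes summed to 25154 CPM.

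Cluster 2 (99 cells) had the highest medians of Krt15, Cyp2f2, Dcn and Prrx1 among the 5 clusters. Its Cdkn2b was the lowest of the 5 (32.2 CPM), and its Gata3 (47.3 CPM) lay below clusters 1, 3 and 4. Summed Prrx1 was slightly higher in cluster 3 (294.6 against 286.2 CPM). Krt15 had a median of 2338 CPM there, Cyp2f2 3852, Dcn 6212 and Prrx1 212.1, and Foxn1 was detected in 8.08% of cells. Its leading genes were Car3, Tnfrsf11b, which encodes osteoprotegerin, Fmo6, Prg4, Fmo2 (995.1 CPM, 95.96% of cells), H19, Fosl1, Itih5, Enpp2 (677.7 CPM) and Egfl6. MHC class II genes summed to 9794 CPM, and HOX genes to 238.6 CPM against 86.8 in cluster 1. Early response genes were high, with Fos at 6684 CPM.

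Cluster 3 (51 cells) separated the markers from each other. Krt15 was nearly absent, with a median of 1.92 CPM, and Dcn had a median of 240.8, while Cyp2f2 stood at 701.9 and Prrx1 at 167.9. Its leading genes were Prom1 (236.6 CPM, 47.1% of its cells), Sparcl1, Wfdc18, Dpp4, Col15a1, Notch3 (211.3 CPM, 94.1%), Zeb2, Gucy1a3, Tmod1 and Adcy2. The Notch list summed to 1956 CPM, between 661.8 and 910.7 CPM in the other 4. Within it Heyl, a target of Notch signalling, had 461.5 CPM and Hey1 336.5 CPM, while the ligands Jag2 (13.5 CPM) and Dll1 (7.399 CPM) were at their lowest of the 5 clusters. Basal genes summed to 3792 CPM, the lowest of the 5.

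Cluster 4 (49 cells) was also high in these markers, with medians of 870.8 CPM for Krt15 and 4543 CPM for Dcn, and had the highest Gata3 (109.1 CPM, 71.4% of cells). It was led by Bcat1, Krtdap, a keratinocyte differentiation gene (93.9 CPM, 61.2% of cells), Ifitm1, Bpifa1, Fcgbp, Ctss, Oas2, Ly6c1, Plac8 and Oasl1. Bpifa1 was detected in only 30.6% of these cells. MHC class I genes summed to 17812 CPM, the highest of the 5, and basal genes to 14719 CPM. The thymocyte list summed to 168.9 CPM and the B-cell list to 144.4 CPM here, above the other clusters, while the median cell held 9.27 and 0 CPM. Their part in the cluster's leading genes was not tested. With each cell thinned to 100000 gene counts, 21 of the 49 cells stayed together in 1 cluster, against at least 90.6% of the cells of each other cluster.

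Cluster 5 (32 cells) had the lowest leading folds of the 5, between 4.80 and 9.40 on CPM + 1. It was led by Ucma, Tox3, Klf2 (378.8 CPM), Bambi, Egr2, Rasd2 and Pcp4 (374.1 CPM), and 3 unannotated transcripts. Early response genes summed to 31019.9 CPM, the highest of the 5, and Foxn1 was detected in 56.2% of its cells. Krt15 and Cyp2f2 lay between clusters 1 and 2, with medians of 79.05 CPM for Krt15 and 1186 CPM for Cyp2f2. Cdkn2b ran from 32.2 CPM in cluster 2 to 60.8 CPM in cluster 3.

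**Figure D3:**
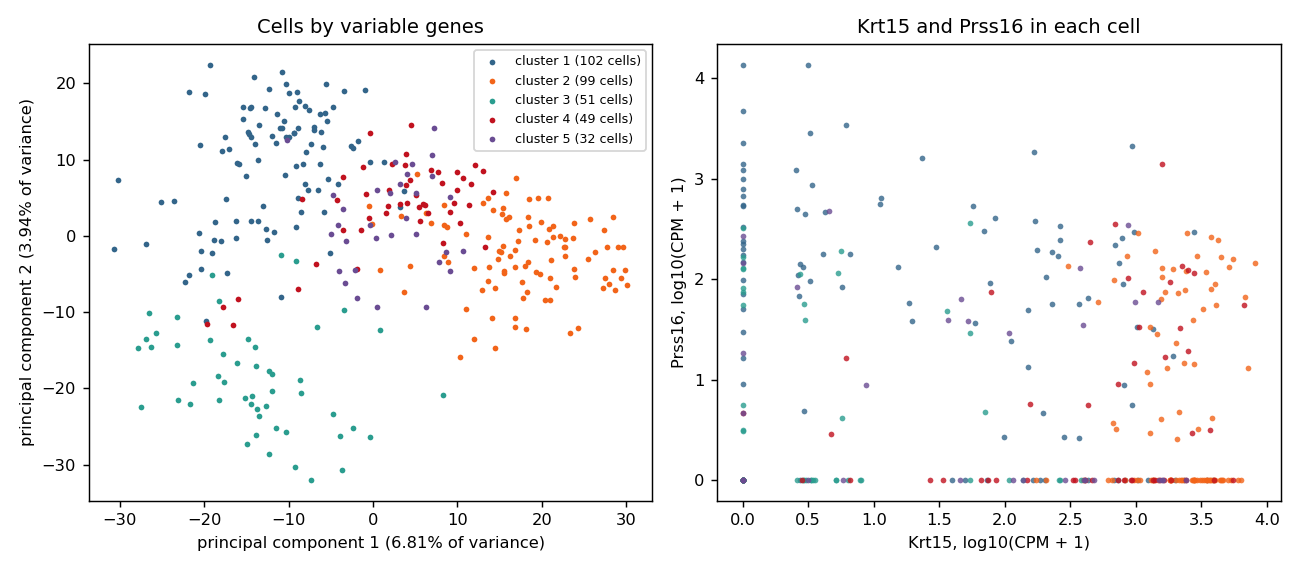
Left, each cell by its first and second principal component of the 1000 most variable genes, colored by cluster. Right, Prss16 (y axis) against Krt15 (x axis) in each cell as log10 of CPM + 1; cluster 2 lies at high Krt15, and the cells with the most Prss16 belong to cluster 1.

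**Figure D4:**
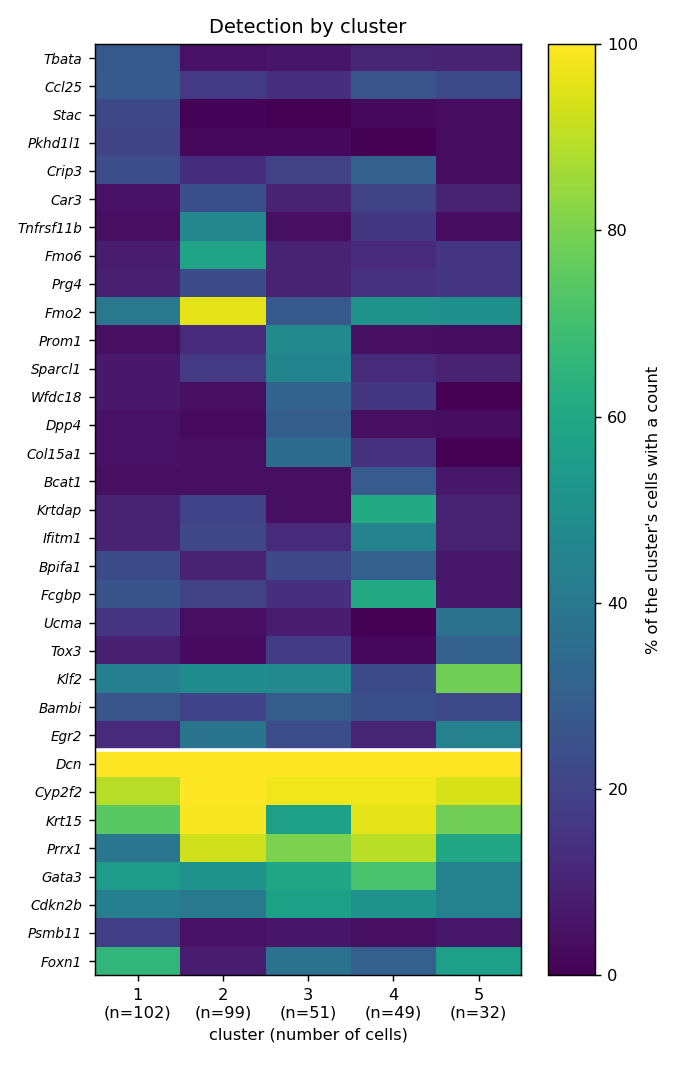
Percent of a cluster's cells with at least 1 count (color) for 5 named leading genes of each cluster and, below the white line, 8 marker and cortical genes (rows) in the 5 clusters (columns). Foxn1 runs from 8.08% in cluster 2 to 65.7% in cluster 1, and Krt15 from 56.9% in cluster 3 to 98.99% in cluster 2.

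Foxn1 also ran opposite to Krt15, Cyp2f2, Dcn and Prrx1 over single cells, without clusters. Over all cells Foxn1 stood at -0.37 with Krt15, -0.36 with Prrx1, -0.35 with Cyp2f2 and -0.33 with Dcn (Spearman), but at 0.00013 with Cdkn2b and 0.011 with Gata3. For Psmb11 and Prss16 the correlations with the first 4 markers were weaker, between -0.28 and -0.15. From 5 counts, Foxn1 was found with Prrx1 in 49 cells and without it in 64, and with Krt15 in 60 and without it in 53. Across list sums, the cTEC list stood at -0.14 with the mesenchymal and 0.01 with the basal list. The mesenchymal list stood at -0.41 with the epithelial list and 0.34 with the mesodermal factors, and MHC class II genes at 0.47 with the cTEC list and -0.35 with HOX genes. Dcn and Prrx1 belong to the mesenchymal list and Prrx1 to the mesodermal one as well, so these sums share genes. The list sums had correlations between 0.03 and 0.19 with depth.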

How the data were processed

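RNA of single sorted cells was made into SMART-seq2 libraries, per the labels' protocols. The deposited counts per gene, in whole numbers, were used as the authors left them, in the table described as unadjusted. HISAT 0.1.6, BWA 0.5.9, HTSeq, Trimmomatic, FastQC and MACS2 and the build mm10 are listed, per the submitters' processing notes, without a role for each. No strand setting is given in the sources used here, so overlapping, antisense and near-identical genes cannot be told apart. Spike-in and summary rows were left out of totals. Of 384 wells labelled cTEC Eed, 333 passed, beside 272 WT cTECs and 286 WT, 330 ZsGneg and 217 ZsGpos mTEChi cells.

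CPM was computed from counts summed over cells, or per cell. Clusters came from scanpy 1.11.5 and igraph 0.11.9 (1000 variable genes on log2(CPM/10 + 1), 15 principal components, 15 neighbours, resolution 0.5), with python 3.11.15, numpy 2.4.6, pandas 2.3.3, scipy 1.17.1 and matplotlib 3.10.9. Spread was ranked against a running median over 201 genes, among genes with at least 10 CPM detected in 20% to 90% of cells. The scripts were tested on simulated data. No doublet caller was run, since each well received 1 sorted cell; 3 cells had over 1.5 times the median of detected genes. Of 45317 gene rows, 41743 matched the gene name table and 32165 RefSeq.

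The members and the 37 gene lists were chosen with earlier results of these data known. The text names list genes, the 15 genes with most counts, the 20 most variable, 10 leading genes per cluster and the 5 closest correlates of each marker among genes detected in at least 20% of cells. Unannotated names are only counted, and a few named genes are not reported here. Shares and levels were recomputed with other detection limits, cell filters, parts of the plate and thinned counts, and clusters at other resolutions.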

Additional observations from a re-analysis of the deposited data

How the results depend on the processing

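Detection shares depended on the count that makes a detection. From 5 counts the share was 68.2% for Krt15, 81.1% for Cyp2f2, 64.3% for Prrx1, 87.99% for Dcn and 45.05% for Gata3, and from 10 CPM it was 68.8%, 82.9%, 64.6%, 89.5% and 45.6%. Thinned to 100000 gene counts per cell, Krt15 stood at 72.1%, Cyp2f2 at 86.97%, Dcn at 93.6% and Gata3 at 48.2%; fewer counts were searched by construction. With no filter on cells, Cyp2f2 stood at 91.9%, Prrx1 at 64.6%, Cdkn2b at 40.1% and Gata3 at 49.2%, since the shallow wells then count. Of 84 share alternatives, 66 lay inside the interval of the value reported. Leaving out cells by mitochondrial share or by number of genes was chosen after seeing the data. Levels of the 6 markers varied between alternatives by at most 1.11-fold, and that of Psmb11 from 14.4 to 54.8 CPM. The cause was not tested. Of 35 level alternatives over the markers and Psmb11, 10 lay inside the interval of the value reported, which covers counting error only. For Dcn the alternatives ran from 4284 to 4740 CPM, against an interval of 4506 to 4527. The number of genes detected in at least 10% of cells was 11080 from 5 counts and 12732 without cells with Ptprc. Clustering gave 3 clusters at resolution 0.3 and 9 at resolution 1.0, and 5 without depth-related genes or with thinned counts. At resolution 1.0 the largest part of cluster 1 held 50.98% of its cells, and that of cluster 2 held 52.5%. No paired analysis was possible because replicate numbers only name wells and each group is 1 sample. A count of 0 allows a share of up to 0.901% of cells (3 cells of the total).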
